A study of Mus musculus with 6 samples.

Results

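The genes described here are 10 transcription factors known for driving epithelial-mesenchymal transition (EMT): Zeb1, Zeb2, Snai1, Snai2, Snai3, Twist1, Twist2, Prrx1, Foxc2 and Tcf4. They were chosen by name, and all 10 were among the 21966 genes of the deposited table. RNA was sequenced from primary cells grown out of colonic tumors of mice, with or without a peptide that inhibits Group I p21-activated kinases (Paks). PID+ cells carried CDX2P-NLS-Cre, the allele APC^Δ/+ and ROSA26-PID, from which Cre releases a Pak inhibitor peptide (PID), and the labels number them as mice 4, 7 and 26. PID- cells, of littermates, carried CDX2P-NLS-Cre and APC^Δ/+ without the peptide allele, labelled mice 1, 2 and 3. Both groups therefore carry the Apc allele and a Cre driven by the CDX2 promoter, which is active in intestinal epithelium. Both are tumor cells, although the label of the PID- samples calls them normal.

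The table holds 1 pooled FPKM (fragments scaled to transcript length and sequencing depth) per gene and condition, with the lower and upper bound of a confidence interval, and no value for a single mouse. The methods describe the 3 sets of reads of a condition as sequencing runs, whereas the labels name 3 mice, and they were merged before FPKM were calculated. The table's condition called untreated was taken as PID- after the labels. Every direction below rests on this, and it was not checked on a value of the peptide allele. By PCR, the paper reports gain of E-cadherin and Crb3 and loss of vimentin and N-cadherin mRNA in PID+ cells. With this assignment Cdh1, the gene of E-cadherin, measured 88.0 FPKM in PID- against 192 in PID+ cells. Crb3 had 22.4 in PID- against 55.8 in PID+ cells, and Vim 997 against 19.1. Cdh2, the gene of N-cadherin, hardly differed in FPKM, with 39.4 in PID- against 38.8 in PID+ cells. The paper's PCR panel also held the members Zeb1, Zeb2, Snai1, Snai2 and Twist1. By immunoblot, a measure of protein, it reports Zeb1, Snai1, Snai2 and Twist as close to undetectable in PID+ cells. It also reports far more fibronectin protein in PID- cells, whereas Fn1, the gene of fibronectin, had 1118 FPKM in PID- against 1597 in PID+ cells. A replicate check was not possible for any difference given here, and p-values are not given. A log2 change is the log2 of the ratio of FPKM + 1, with PID+ over PID-, and makes the difference look smaller where FPKM are low. The paper's PCR was normalized to Gapdh, unlike the FPKM. With Gapdh FPKM made equal, the log2 changes went from 1.12 to 0.50 for Cdh1 and from 1.28 to 0.67 for Crb3. That of Vim went from -5.63 to -6.22, and that of Cdh2 from -0.02 to -0.63. "Lower" and "higher" as calls mean at least 3-fold on this scale, and where a pair of FPKM is given without its conditions, PID- comes first.

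EMT is the loss of junctions and polarity by epithelial cells as they take on a motile, mesenchymal state. Snai and Zeb proteins are zinc finger repressors that bind E2-boxes in genes of epithelial junctions, Twist proteins and Tcf4 are basic helix-loop-helix factors, Prrx1 is a homeobox factor and Foxc2 a forkhead factor. Zeb mRNAs are in turn repressed by the miR-200 family, and Snai1 protein is short-lived and controlled largely by phosphorylation and ubiquitin ligases, so its mRNA is an incomplete measure of the protein.

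In PID+ cells, 4 of the 10 factors were lower at 3-fold (Zeb1, Zeb2, Snai2 and Twist2), against 1.72% of all 21959 genes with a usable value in both conditions and 3.42% of the 11035 genes whose FPKM reached 2 in either condition, a level that 7 members reached, the 4 lower ones among them. A single member, Snai3, was higher, against 1.04% of all genes and 2.08% of those that reached an FPKM of 2, but its direction is uncertain and the call was lost with equal total or Gapdh FPKM, as its values below show. The deposited bounds of the conditions were apart for Zeb1 and Zeb2, both lower in PID+ cells, against 0.542% of all genes, and for no member in the other direction, against 0.187%. The median log2 change of the members was -0.93 (-1.99 if the pseudocount was 0.1), while the median of all genes was 0. Of the 10 values, 9 were below 0, against 39.7% of all genes, of which 40.99% were above 0. Among the 11480 genes whose mean FPKM reached 1, 50.6% were below 0. In bulk RNA, fewer cells that make a transcript cannot be told apart from less of it in each cell.

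On the scale of FPKM + 1, Zeb2 and Zeb1 had the most negative changes of the members. By the ratio of FPKM alone, PID- over PID+, Twist2 came first with 37.7, before Zeb2 with 27.9 and Zeb1 with 23.2. Zeb2 (ENSMUSG00000026872.13, chromosome 2 of GRCm38 from 44983632 to 45117395, minus strand) had an FPKM of 22.9 in PID- cells, with bounds of 7.37 and 38.4. In PID+ cells it had 0.821, with an upper bound of 1.90, which gives a log2 change of -3.71. Only 0.155% of all genes had a more negative change. Zeb1 (ENSMUSG00000024238.10, chromosome 18) had 9.35 in PID- cells, with bounds of 1.67 and 17.04, and 0.404 in PID+ cells, with an upper bound of 1.19, and its log2 change was -2.88. With a pseudocount of 0.1 the changes were -4.64 for Zeb2, -4.23 for Zeb1 and -4.19 for Twist2. For both Zeb genes the interval in PID+ cells reached down to 0. Annotated genes on the other strand overlap Zeb2 (Zeb2os, Gm27761, Gm27404 and Gm27645), Zeb1 (Gm10125 and Gm16147), Twist2 (Gm29100), Prrx1 (Gm20471) and Snai3 (Gm20388). The library kit does not mark strand, so that reads from such a pair cannot be told apart.

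Of the Snai genes outside chromosome 8, Snai2 was lower and Snai1 was past 3-fold in neither direction. Snai2, which codes for Slug (ENSMUSG00000022676.6, chromosome 16 from 14705852 to 14709385), measured 11.5 FPKM in PID- against 1.01 in PID+ cells, and its log2 change was -2.64 (-3.39 with a pseudocount of 0.1). Its bounds just overlapped, with an upper bound of 2.43 in PID+ and a lower bound of 2.26 in PID- cells. The median log2 change of 277 genes on chromosome 16 was -0.50, and Snai2 was at -2.13 with that median subtracted. Snai1, which codes for Snail (ENSMUSG00000042821.7, chromosome 2 from 167538195 to 167542814), was low in both conditions, with 0.784 in PID- against 0.438 in PID+ cells, and its log2 change was -0.31 with overlapping bounds.

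Snai3 and Foxc2 carried the least certain values. Snai3 (ENSMUSG00000006587.5, chromosome 8 from 122454208 to 122460733) measured 1.13 FPKM in PID- against 5.54 in PID+ cells, and its log2 change was 1.62, but its upper bounds were 51.4 and 91.4 and its lower bounds 0. The log2 change was 1.53 with equal total FPKM and 1.11 with equal Gapdh FPKM. Foxc2 (ENSMUSG00000046714.7, chromosome 8 from 121116171 to 121118895) measured 0.385 in PID- against 0.0638 in PID+ cells, with upper bounds of 22.2 and 6.91, and its log2 change was -0.38 (-1.57 with a pseudocount of 0.1). Both genes lie within Gm20388, a protein coding gene model that spans 4.43 Mb of chromosome 8 from 119910841 to 124345722 and was itself listed at 20.9 FPKM in PID- against 9.59 in PID+ cells. Of the genes that overlap this model, 49 had an FPKM of at least 1 in both conditions. Their upper bound was at a median of 10.9 times the FPKM in PID- cells and 9.07 times in PID+ cells, and the lower bound was 0 in both conditions for all 49. Among 10767 other genes with such FPKM, the medians were 1.83 and 1.85 times, and 28.5% had lower bounds of 0 in both conditions. How the authors' counting divided fragments between Gm20388 and the genes within it was not tested, so the direction of Snai3 and Foxc2 is uncertain.

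Among the helix-loop-helix factors, Twist2 was nearly at 0 in PID+ cells while Twist1 was present in both conditions. Twist2 (ENSMUSG00000007805.4, chromosome 1 from 91801461 to 91848028) measured 3.33 FPKM in PID- against 0.0882 in PID+ cells, and its log2 change was -1.99, with a lower bound of 0 in PID- cells. Twist1 (ENSMUSG00000035799.5, chromosome 12 from 33957671 to 33959829) measured 22.2 in PID- against 12.8 in PID+ cells, and its log2 change was -0.75 with overlapping bounds. Tcf4 (ENSMUSG00000053477.12, chromosome 18), the E protein also called E2-2, was the most abundant member in both conditions, with 38.0 in PID- against 19.7 in PID+ cells, and its log2 change was -0.91 with overlapping bounds, and -1.50 with equal Gapdh FPKM. Tcf7l2, the Wnt effector that shares the alias TCF4 and is a different gene, had 8.48 and 5.52, with a log2 change of -0.54. Prrx1 (ENSMUSG00000026586.13, chromosome 1 from 163245119 to 163313710) measured 1.20 in PID- against 0.144 in PID+ cells, and its log2 change was -0.94, which became -2.41 with a pseudocount of 0.1 in place of 1.

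**Figure D1:**
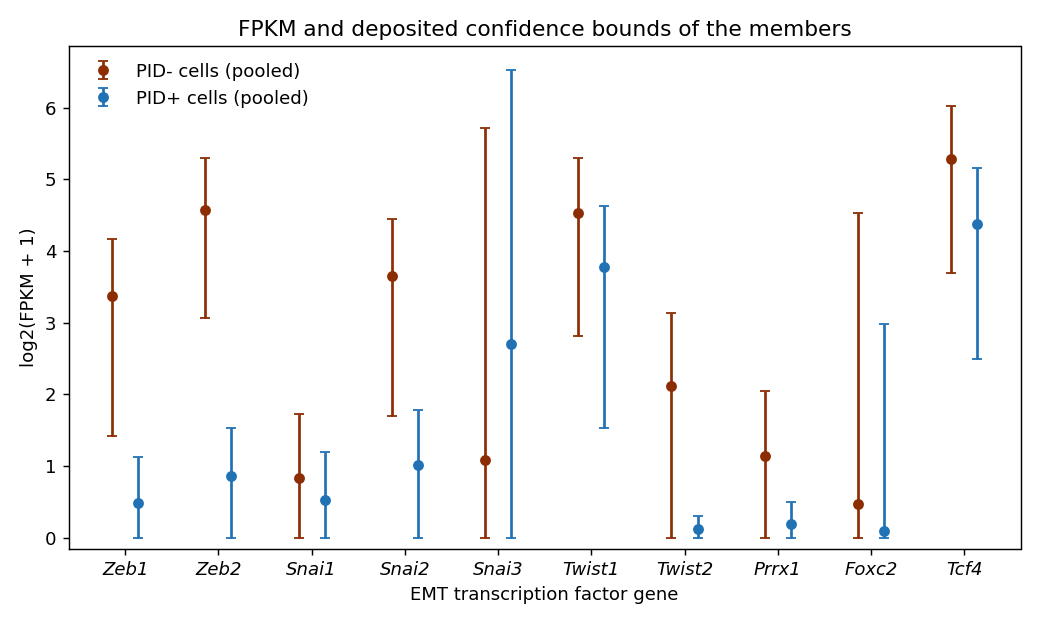
FPKM of the 10 EMT transcription factor genes on a log2(FPKM + 1) axis, with a point for each pooled condition and bars from the lower to the upper deposited confidence bound. The bars of the conditions are apart for Zeb1 and Zeb2, and those of Snai3 and Foxc2 are the widest on the side above the point.

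The order of the members differed between the conditions. In PID- cells it ran from Tcf4 through Zeb2, Twist1, Snai2, Zeb1, Twist2, Prrx1, Snai3 and Snai1 to Foxc2. In PID+ cells Tcf4 was followed by Twist1, Snai3, Snai2, Zeb2, Snai1, Zeb1, Prrx1, Twist2 and Foxc2. Neighbours in either order had overlapping bounds in all 9 pairs, so that adjacent ranks are not distinguished. The FPKM of the 10 genes summed to 111 in PID- against 41.02 in PID+ cells, and Tcf4 and Twist1 together made up 54.3% of the sum in PID- and 79.2% in PID+ cells. An FPKM of at least 1 was reached by 8 members in PID- and by 4 in PID+ cells. Without Snai3, whose value is uncertain, the sums were 109.6 and 35.5, the shares of Tcf4 and Twist1 54.9% and 91.6%, and the numbers at an FPKM of at least 1 were 7 and 3.

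For the 5 members with a single annotated transcript, the number of fragments behind a value could be estimated, because low FPKM fall on steps of 1 fragment. In PID+ cells 91.4% of 678 low values, and in PID- cells 91.3% of 657, lay within 0.1 of a whole number. The step was chosen to make this share largest, so the share is not a test of it. Snai1 rested on about 42.8 fragments in PID+ and 106 in PID- cells, above the floor of 3. The ratio of its FPKM, PID- over PID+, was 1.79, with an exact 95% interval of 1.24 to 2.60 that covers counting error only and not differences between mice. With PID+ cells first, Snai2 rested on about 127 and 1995 fragments, a ratio of 11.4 (9.49 to 13.7), and Twist1 on about 1255 and 3017, a ratio of 1.74 (1.63 to 1.86). Foxc2 rested on about 11.03 and 92.1 fragments and Snai3 on about 545 and 153, with the uncertainty from Gm20388 given above. With equal Gapdh FPKM, the ratios and intervals of Snai1, Snai2 and Twist1 would be 1.54 times as large. The step of 1 fragment was 1.38 times as large in PID+ cells as in the others, and since depth and the authors' scaling both enter it, depth is unknown.

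A list of 13 genes held relatives of the members together with Tcf7l2, Tcf7, Tcf7l1 and Lef1. These last are Wnt effectors outside the families of the members and were listed for the shared TCF name. None of the 13 was past 3-fold in either direction, and their median log2 change was -0.24. With a pseudocount of 0.1, 2 were lower, Prrx2 and the Wnt effector Lef1. Prrx2, a homeobox paralog of Prrx1, measured 52.9 FPKM in PID- against 17.05 in PID+ cells (log2 change -1.58), just inside the threshold and past it with equal total or Gapdh FPKM (-2.16 with the latter). Lef1, a Wnt effector, had 0.456 and 0.00461 (-0.54, or -2.41 with a pseudocount of 0.1). The E protein Tcf12 had 58.6 and 36.2 (-0.68), and Tcf7, also a Wnt effector, 16.7 and 10.5 (-0.62). The Id proteins, which bind E proteins and keep them off DNA, were not past 3-fold in any of 4 genes. Id3 measured 46.6 in PID- against 17.5 in PID+ cells (-1.36, or -1.95 and past 3-fold with equal Gapdh FPKM), Id1 had 138 and 76.8 (-0.84), and Id4 had 0.417 and 2.97 (1.49, or 2.57 and past 3-fold with a pseudocount of 0.1). Id2 had 72.01 and 89.9, with a log2 change of 0.32, and -0.30 with equal Gapdh FPKM.

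Corepressors and chromatin partners of the Snai and Zeb factors were present in both conditions, with an FPKM of at least 1 for all 21 in each, and none was past 3-fold. Their median log2 change of 0.12 became -0.49 with equal Gapdh FPKM. Loxl2, a lysyl oxidase that binds Snai1, measured 1.76 in PID- against 5.64 in PID+ cells (log2 change 1.27, or 1.63 and past 3-fold with a pseudocount of 0.1). The LIM protein Ajuba had 32.03 and 60.9 (0.91), and Ezh2, the methyltransferase of Polycomb repressive complexes, 32.8 and 60.5 (0.86). With equal Gapdh FPKM the log2 changes of Loxl2, Ajuba and Ezh2 were 0.76, 0.29 and 0.25. The demethylase Kdm1a had 47.3 and 30.0 (-0.64). The most abundant by mean FPKM were the deacetylase Hdac2, with 78.6 and 69.0, and Ctbp1, with 77.0 and 60.8.

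Of 18 genes listed as regulators of Snai1 protein, 1 was lower and none higher, with a median log2 change of -0.19, which became -0.77 with equal Gapdh FPKM. The lower gene was Pak3, with 75.9 FPKM in PID- against 14.7 in PID+ cells (-2.29) and a lower bound of 0 in both. Pak3 was listed as a Group I Pak, while the paper names Pak1 as the kinase of Snai1. The phosphatase Ctdsp2 had 24.6 and 12.9 (-0.89), and Gsk3b, the kinase that marks Snai1 for degradation, 24.6 and 13.4 (-0.83). Prkd1 had 1.63 and 3.34 (0.72). The most abundant by mean FPKM, Csnk1a1 and Cops2, had log2 changes of -0.02 and -0.11.

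Among 20 genes of signals that induce EMT, 1 was lower and none higher, with a median log2 change of -0.13, and 2 were lower with equal total FPKM or a pseudocount of 0.1 and 5 with equal Gapdh FPKM. Tgfb2, a TGF-β ligand, measured 19.9 FPKM in PID- against 0.492 in PID+ cells (-3.81), with bounds that were apart. The BMP antagonist Grem1 had 3.01 and 0.343 (-1.58, or -2.81 with a pseudocount of 0.1), and the immediate early factor Egr1 21.4 and 7.22 (-1.45). Met, the HGF receptor, had 24.9 and 58.4 (1.20, or 0.59 with equal Gapdh FPKM). The most abundant by mean FPKM were Hif1a, with 144 and 65.6, and Hmga2, with 117 and 145 (0.31, or -0.31 with equal Gapdh FPKM).

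Of 27 epithelial genes that Snai and Zeb factors are known to repress, 8 were higher and 1 lower at 3-fold, 26 had a log2 change above 0 (23 with equal Gapdh FPKM), and the median was 1.23. The 8 calls as higher were kept with equal upper quartile and 7 of them with equal total FPKM. With equal Gapdh FPKM, which moved the median of the 9341 genes whose mean FPKM reached 5 to -0.58, the median of the list was 0.62, which is 1.20 above that of those genes, and 0 of its genes were higher at 3-fold. The polarity gene Llgl2 measured 7.78 FPKM in PID- against 36.6 in PID+ cells (2.097), Grhl2, an epithelial transcription factor, 7.38 and 31.1 (1.94), and the membrane protease Prss8 5.07 and 22.03 (1.92). Muc1, a membrane mucin, was lower, with 7.81 and 0.817 (-2.28). The bounds of the conditions were apart for 1 of the 27 genes, St14, which was higher with 33.7 and 122 (1.83). Those of Llgl2, Grhl2, Prss8 and Muc1 overlapped. The most abundant by mean FPKM, the keratins Krt8 and Krt19, had log2 changes of 1.06 and 0.25, the latter becoming -0.37 with equal Gapdh FPKM.

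Of 25 mesenchymal genes, 9 were lower and none higher, with a median log2 change of -1.22. With a pseudocount of 0.1, 14 were lower and the median was -1.87. The log2 change was below 0 for 21 of them and above 0 for 3. Vim, which codes for the intermediate filament vimentin, measured 997 FPKM in PID- against 19.1 in PID+ cells (-5.63), the collagen gene Col1a2 11.9 and 0.0654 (-3.60), and Lox, a lysyl oxidase, 10.4 and 0.220 (-3.23), each with bounds that were apart. Col3a1 had 6.35 and 0.339 (-2.46) with overlapping bounds. The 3 genes above 0 were Mmp14, a metalloproteinase of the cell membrane, with 121 and 181 (0.58), Fn1, the gene of fibronectin, with 1118 and 1597 (0.51), and Mmp9, with 0.0461 and 0.162 (0.15). With equal Gapdh FPKM the log2 changes of Mmp14 and Fn1 became -0.04 and -0.11. Cdh2, which codes for N-cadherin, had 39.4 and 38.8 (-0.02, or -0.63 with equal Gapdh FPKM).

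**Figure D2:**
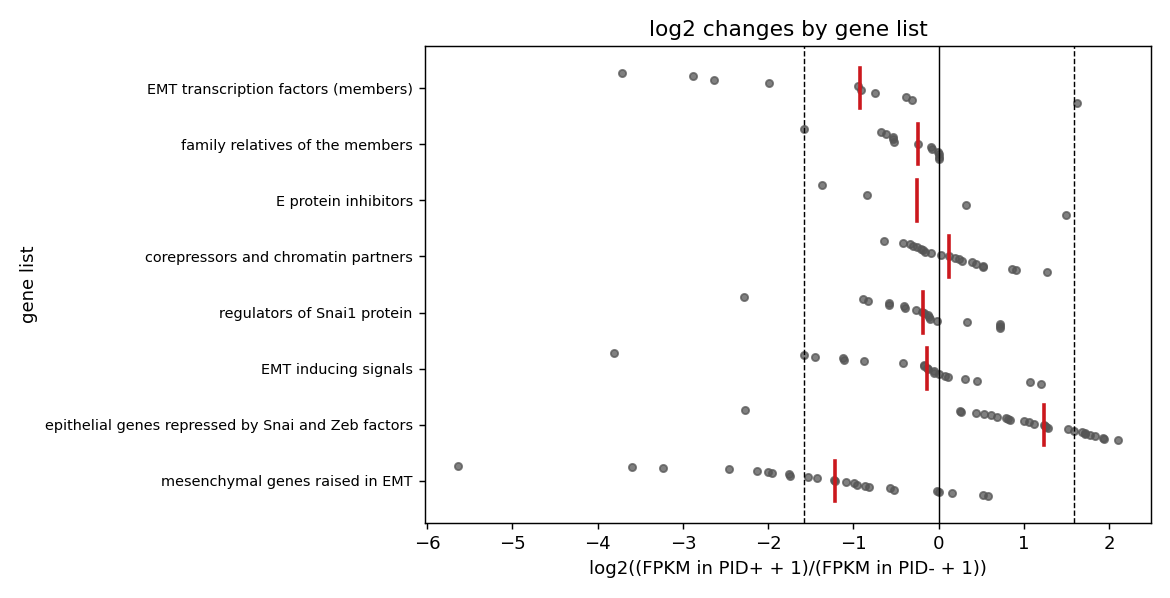
The log2 change between PID+ and PID- cells on the horizontal axis for each gene of the members and of the lists around them, with a point for each gene, a red bar at the median of each list and dashed lines at 3-fold. The median was -0.93 for the members, 1.23 for the epithelial genes and -1.22 for the mesenchymal genes.

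Markers of the labelled cell type and of other cells were counted in the same way. Of 12 colon epithelium markers, 2 were higher (1 with equal total and 0 with equal Gapdh FPKM) and 2 lower, with a summed FPKM of 4994 in PID- against 9087 in PID+ cells, and Krt19 and Krt18 were the most abundant in PID- and PID+ cells. Epcam had 124 and 401 (log2 change 1.68) and Cldn7 79.4 and 274 (1.77), while the intestinal genes Cdh17, with 25.9 and 1.67 (-3.33), and Cdx2, with 8.04 and 0.542 (-2.55), were lower. Cdx1 was listed at 0 in both conditions. Of these markers, 6 are also in the list of repressed epithelial genes.

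Fibroblast markers summed to 34.2 in PID- against 3.08 in PID+ cells, and 4 of 10 were lower at 3-fold (6 with a pseudocount of 0.1) and none higher. Col1a2 was the most abundant in PID- cells and Col1a1, with 11.9 and 2.32 (-1.95), in PID+ cells. Dcn had 2.39 in PID- cells and was listed at 0 in PID+ cells. Lum and Dpt were listed at 0 in both conditions, and Thy1 in PID+ cells. Of these 10 genes, 4 are also in the mesenchymal list, and the part of fibroblasts in the differences of the members was not tested.

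Smooth muscle markers summed to 16.03 in PID- against 6.05 in PID+ cells, with 1 of 6 lower, and Acta2 was the most abundant, with 9.76 and 4.39. Tagln had 2.93 and 1.02, Actg2 3.06 and 0.280 and Des 0.0320 and 0.119. Acta2 and Tagln are also in the mesenchymal list, and the part of smooth muscle cells was not tested either. Endothelial markers summed to 1.12 and 3.77, and none of 6 was past 3-fold, while 2, Kdr and Cdh5, were higher with a pseudocount of 0.1. Most of the sum was Kdr, with 1.01 and 3.33. Cdh5 had 0.00279 and 0.219 and Pecam1 0.0931 and 0.0960, Emcn was listed at 0 in PID- and had 0.109 in PID+ cells, and Cldn5 was listed at 0 in both. Immune markers summed to 17.2 and 22.0, nearly all of it the lysosomal gene Cd68, with 16.8 and 21.8 (log2 change 0.35, or -0.24 with equal Gapdh FPKM), while Csf1r had 0.233 and 0.0595 and Adgre1 0.0247 and 0.0669. Lyz2 had 0.0393 in PID- and was listed at 0 in PID+ cells, and Cd3e was listed at 0 in both. Of the enteric glia markers, Sox10 was listed at 0 in both.

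The gene nearest to Zeb2 in log2(FPKM + 1) over the 2 conditions was Enpp2, at a distance of 0.14. Its FPKM was 20.6 in PID- against 0.797 in PID+ cells. Nearest to Tcf4 were Ntan1, Pnrc1 and Leprotl1, at distances of 0.03, 0.08 and 0.08. Such a likeness rests on 2 values per gene.

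The 5 miR-200 family members fall into a pair of seed groups. They are shown because their seeds (bases 2 to 8, in capitals) were used to search the 3′ untranslated region of each member, and the sequences are those of RefSeq (GRCm38.p6).
miR-200b-3p: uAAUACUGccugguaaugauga
miR-200c-3p: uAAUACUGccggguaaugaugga
miR-429-3p: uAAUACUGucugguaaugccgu
miR-200a-3p: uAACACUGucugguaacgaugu
miR-141-3p: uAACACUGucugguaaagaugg

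The matches to these seeds, CAGTATT and CAGTGTT, were counted on the transcript strand in the longest annotated 3′ untranslated region of each gene. Zeb1 and Zeb2 held 9 each, 5 of CAGTATT and 4 of CAGTGTT. Of 21171 genes, 25.1% held at least 1 match and 2.73% at least 3. Tcf4 held 3, Snai2 2, and Snai1 and Foxc2 1 each, and Twist1, Twist2, Prrx1 and Snai3 held none. The regions differ in length, from 648 bases in Snai3 to 6010 in Tcf4, and the matches per kilobase were 3.74 for Zeb1, 1.83 for Snai2, 1.82 for Zeb2, 1.36 for Snai1, 1.25 for Foxc2 and 0.499 for Tcf4. The first 3 matches in Zeb2 (chromosome 2) are shown with the match in capitals.
Zeb2 match 1: attatgcaaaaattttgtaCAGTGTTaagg
Zeb2 match 2: tgcccgcactaccatacatCAGTATTttat
Zeb2 match 3: tgcccgcactacagtgcatCAGTATTacga

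The E2-box CAGGTG, which reads CACCTG on the other strand, was searched in promoter windows of 300 bases from RefSeq. It occurred in 22.3% of 16352 genes of the table with a window. Of the 27 epithelial genes, 15 had a window and 14 of these held an E2-box, in a list made of known targets of E2-box binding factors. Of the members, 5 had a window (Snai1, Twist1, Twist2, Prrx1 and Zeb2) and 1, Snai1, held an E2-box. Snai2, Snai3, Foxc2, Zeb1, Tcf4 and Cdh1 had none in the table of windows. A match is a description of the letters and not of binding. The windows of Crb3, an epithelial polarity gene with 4 matches (chr17:57061951-57062250, plus strand) and 22.4 FPKM in PID- against 55.8 in PID+ cells, and of Snai1 (chr2:167537945-167538244, plus strand) are shown with the E2-boxes in capitals.
Crb3: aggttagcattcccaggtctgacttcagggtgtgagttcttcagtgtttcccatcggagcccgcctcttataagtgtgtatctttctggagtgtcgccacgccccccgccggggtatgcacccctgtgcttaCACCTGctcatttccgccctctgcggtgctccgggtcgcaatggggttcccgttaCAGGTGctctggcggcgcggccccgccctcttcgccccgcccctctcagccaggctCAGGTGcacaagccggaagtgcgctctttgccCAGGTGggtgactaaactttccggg
Snai1: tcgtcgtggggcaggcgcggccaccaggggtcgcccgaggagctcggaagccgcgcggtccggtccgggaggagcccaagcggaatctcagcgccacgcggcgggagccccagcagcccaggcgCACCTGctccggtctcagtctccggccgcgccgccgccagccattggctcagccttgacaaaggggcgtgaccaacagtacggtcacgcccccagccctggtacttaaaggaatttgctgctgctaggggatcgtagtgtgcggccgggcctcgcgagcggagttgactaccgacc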

How the data were processed

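RNA-seq of 6 samples, 3 PID+ and 3 PID-, grouped by their labels, was used. The table's condition called untreated was taken as PID- and the other as PID+. According to the methods, the authors trimmed paired end reads, aligned them with TopHat to GRCm38.p3, guided by protein coding gene models, into 1 alignment per condition, and ran CuffDiff. The deposited FPKM and their confidence bounds are therefore pooled values that cover CuffDiff's own error model only, and depth is not given. The submitters' processing notes name Bowtie2, FastQC, cutadapt and TopHat.

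Changes used a pseudocount of 1, and 7 genes without an OK status in both conditions were left out. Symbols matched 21734 identifiers. Positions and transcripts came from Gencode M21 (GRCm38), whose release may differ from that of the authors. The worth of 1 fragment was the step that left most values of genes with a single transcript within 0.1 of a whole number, over 31 length corrections, with ties settled by the smallest distance. A first fit returned a step of which hardly any gene had exactly 1, so at least a share of 0.1 of the whole values was then required at 1 fragment, a rule added after seeing the data. The search for miR-200 seed matches and the comparison of genes within Gm20388 were also chosen after seeing the data. The planned comparison of protein sequences was not run.

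The 14 lists, with the members as 1 of them, were chosen with earlier results of these data known. Named genes were the members, Tcf7l2, the 4 genes of each list with the largest absolute log2 change and the 2 with the highest mean FPKM, and the genes nearest to Zeb2 and to Tcf4, planned as 3 each. Some of the planned genes, with the sums of the enteric glia markers, are not reported here. Crb3 was added for its promoter, and Cldn5, Cd3e, Cdx1, Lum, Dpt, Thy1 and Krt18 as markers at 0 or most abundant, and Mmp14, Mmp9, Cdh1, Cdh2, Lef1 and St14, after their values were seen. Alternatives were a pseudocount of 0.1, filters on mean FPKM at 1 and 5, a 2-fold threshold, equal total, upper quartile or Gapdh FPKM, and the chromosome median subtracted. The counts of each list with equal total, upper quartile and Gapdh FPKM and with a pseudocount of 0.1, and the sums without Snai3, were added after seeing the data. Only the 3-fold calls and the fit of the step of 1 fragment were tested on simulated data. The simulated calls had high FPKM and changes past the threshold, so that they do not cover low values. All calculations were run in Python 3.11.15 with pandas 2.3.3, numpy 2.4.6 and scipy 1.17.1, and plots were drawn with matplotlib 3.10.9.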

Additional observations from a re-analysis of the deposited data

How the results depend on the processing

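The number of members lower at 3-fold was 4 with equal total, upper quartile or Gapdh FPKM, with chromosome medians subtracted, where the mean FPKM had to reach 1 and at 2-fold, and 5 with a pseudocount of 0.1. Where the mean FPKM had to reach 5 it was 2, and the number with bounds apart was 1 in place of 2, since that filter leaves fewer members. Over all genes, 229 were higher and 377 lower. These were 621 and 795 with a pseudocount of 0.1, and 76 and 662 with equal Gapdh FPKM, so that the share of higher calls went from 37.8% to 10.3%. Gapdh itself measured 1666 FPKM in PID- against 2570 in PID+ cells. Of 61 values of single members under the alternatives, 54 moved by less than 1.5-fold and 7 by more, without a change of sign, namely those of Zeb1, Zeb2, Snai2, Twist2, Prrx1 and Foxc2 with a pseudocount of 0.1 and of Tcf4 with equal Gapdh FPKM. Of the list medians under the alternatives, 29 moved by less than 1.5-fold in the same direction and 13 did not. With equal Gapdh FPKM these were the lists of E protein inhibitors, corepressors, regulators of Snai1 protein, epithelial genes and immune and enteric glia markers, beside the shift of -0.58 in all genes whose mean FPKM reached 5. With a pseudocount of 0.1 they were the members, the mesenchymal genes and the fibroblast markers, and where the mean FPKM had to reach 1, the members and the fibroblast, endothelial and enteric glia markers, since that filter leaves fewer genes. No paired analysis was possible because the table holds 1 pooled value per condition, and for the same reason no mouse could be left out. Members with several transcripts have no estimate of fragments.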
